A study of Mus musculus with 16 samples.

Results

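The genes described here build ribosomes or start translation. The members were every probe set of the array whose only gene symbol in the platform annotation began with Eif, the prefix of the eukaryotic initiation factors, or was 1 of a list of nucleolar genes. A probe set is the group of array probes that reads 1 transcript, and a gene can have several. The members were 93 of 12488 probe sets, for 69 of the 8251 genes that the array's single-symbol probe sets name: 57 probe sets of 41 Eif genes and 36 probe sets of 28 ribosome biogenesis genes. Dkc1 and Nle1, which the list also names, had no probe set of their own. The label rests on Nhp2, Pes1, Fbl and Polr1b, and a probe set of each was present and above the signal floor on every array.

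The study measured mouse ileal epithelium, collected by laser capture microdissection, on 16 arrays, which the titles place in a WT group of 6, an adenoma group of 5 and a carcinoma group of 5. The RNA went through a pair of amplification rounds and onto Affymetrix MG_U74Av2 arrays, which are oligonucleotide arrays with 1 signal per probe set. The sources used here do not give the strain, genotype or age of the mice, what made the tumours, how regions were chosen or how many animals gave the arrays. Arrays of a group may therefore share an animal, and the p-values below measure only the spread between arrays, which may be partly technical and would be too small if animals were shared. In captured tissue, fewer cells of a type and less RNA per cell cannot be told apart.

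Ribosomes are built in the nucleolus. RNA polymerase I transcribes the rRNA precursor there, small nucleolar ribonucleoproteins (snoRNPs) guide the methylation and pseudouridylation of that precursor, and assembly factors fold and cut it into the small and large ribosomal subunits. Translation then starts when initiation factors load the initiator tRNA and the capped mRNA onto the small subunit, and the exchange factor eIF2B and the cap-binding protein eIF4E are known control points. In the gut, dividing crypt cells are known for a high demand for ribosomes, and the transcription factor Myc, which binds the E-box CACGTG with its partner Max, is known to drive many of these genes.

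The promoters of 4 genes that carry the changes below show how they differ in that motif. Windows ran from 250 bases before to 50 bases after the RefSeq start, in build GRCm38.p6, and all 4 lie on the + strand. Capitals mark CACGTG, which reads the same on both strands and was the only motif searched. Nhp2, which had the largest rise of all members, has none at chr11:51619523-51619822. Pes1 has 1 at chr11:3963725-3964024, Polr1b, which fell, has none at chr2:129100746-129101045, and Eif4e has 2 at chr3:138527018-138527317. Eif4e has another window, at chr3:138525941-138526240, without the motif and not printed.
Nhp2: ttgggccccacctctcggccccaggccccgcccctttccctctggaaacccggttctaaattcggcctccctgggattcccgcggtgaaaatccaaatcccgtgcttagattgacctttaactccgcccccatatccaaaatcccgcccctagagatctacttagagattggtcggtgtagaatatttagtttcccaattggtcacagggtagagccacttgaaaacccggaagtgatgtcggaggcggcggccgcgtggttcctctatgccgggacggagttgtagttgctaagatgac
Pes1: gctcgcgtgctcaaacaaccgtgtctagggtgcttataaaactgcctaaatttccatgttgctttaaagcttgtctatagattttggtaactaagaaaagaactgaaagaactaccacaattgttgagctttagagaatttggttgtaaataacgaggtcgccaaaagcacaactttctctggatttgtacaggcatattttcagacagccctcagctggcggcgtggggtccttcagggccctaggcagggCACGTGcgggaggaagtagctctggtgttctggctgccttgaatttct
Polr1b: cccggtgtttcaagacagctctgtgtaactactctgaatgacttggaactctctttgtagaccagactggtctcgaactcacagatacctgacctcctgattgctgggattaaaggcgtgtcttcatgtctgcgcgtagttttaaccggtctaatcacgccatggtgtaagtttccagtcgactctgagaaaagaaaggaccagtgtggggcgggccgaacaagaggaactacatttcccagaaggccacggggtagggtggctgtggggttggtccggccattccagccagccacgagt
Eif4e: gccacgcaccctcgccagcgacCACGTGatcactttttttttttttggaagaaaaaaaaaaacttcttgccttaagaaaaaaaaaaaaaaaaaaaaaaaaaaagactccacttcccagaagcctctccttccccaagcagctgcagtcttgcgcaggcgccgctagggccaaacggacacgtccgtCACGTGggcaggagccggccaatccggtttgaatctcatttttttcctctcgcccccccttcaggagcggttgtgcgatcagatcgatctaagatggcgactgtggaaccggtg

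Windows were found for 59 of the 69 member genes. CACGTG was in at least 1 window of 12 of the 59, or 20.3%, against 2187 of 27025 mouse genes, or 8.09%. The 27025 are all genes with a window, not only those on the array, and the difference between the shares was not tested. The 12 were Eif1b, Eif3a, Eif3f, Eif3k, Eif4a1, Eif4e, Eif4h, Eif5a, Mybbp1a, Nop2, Pes1 and Wdr43. Of the 6 genes with a window among those that changed against WT, Pes1 and Eif4e held the motif. A match in these letters is a description of the window and was not tested as a binding site.

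Of the 93 probe sets, 88 lay above the floor (a signal of 46.9, the 25th percentile of all values) on at least 5 of 16 arrays and were tested. The other 5 were 1 of the probe sets each of Eif4b, Eif4enif1, Eif2d, Eif3b and Eif4ebp2, and each was above the floor on 0 to 3 arrays. Changes are log2 fold changes between group means of log2 signal, with their standard error, and a probe set is said to rise or fall where its limma p, adjusted by the Benjamini-Hochberg method over all 10563 probe sets tested, was under 0.05.

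In adenoma, the members that rose were Nhp2, Fbl and Pes1 of ribosome building and Eif2d of initiation, and Polr1b fell. That is 5 of 88 members tested, where 7.77% of all probe sets tested passed. By direction, 4 of 88 rose, where 3.53% of all probe sets did, and 1 of 88 fell, where 4.24% did. The share of members that passed, 5.68%, was thus close to that of the array as a whole. The median change of the members was 0.10, and the median of all probe sets tested was -0.18. At an unadjusted p under 0.05, 13 members were higher and 2 lower, where 8.30% of all probe sets were higher and 14.7% lower. Values above 0 were found for 50 of the 88 members (56.8%), where 37.5% of all probe sets were above 0. The members' changes ran from -1.20 to 1.56.

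In carcinoma, Nhp2, Fbl and Pes1 again rose and Polr1b fell, with Eif2b1 rising and 1 probe set of Eif4e falling. That is 6 of 88, or 6.82%, where 8.68% of all probe sets passed. By direction, 4 rose, where 3.67% of all probe sets did, and 2 fell, where 5.01% did. At an unadjusted p under 0.05, 12 members were higher and 5 lower, where 8.56% of all probe sets were higher and 14.9% lower. The members' median change was 0.17 and that of all probe sets was -0.17, and the members ranged from -1.83 to 1.81. Among the members 54 of 88 (61.4%) were above 0, where 38.4% of all probe sets were. Both comparisons use the same 6 WT arrays, so the values that recur in both are not independent of each other.

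**Figure D1:**
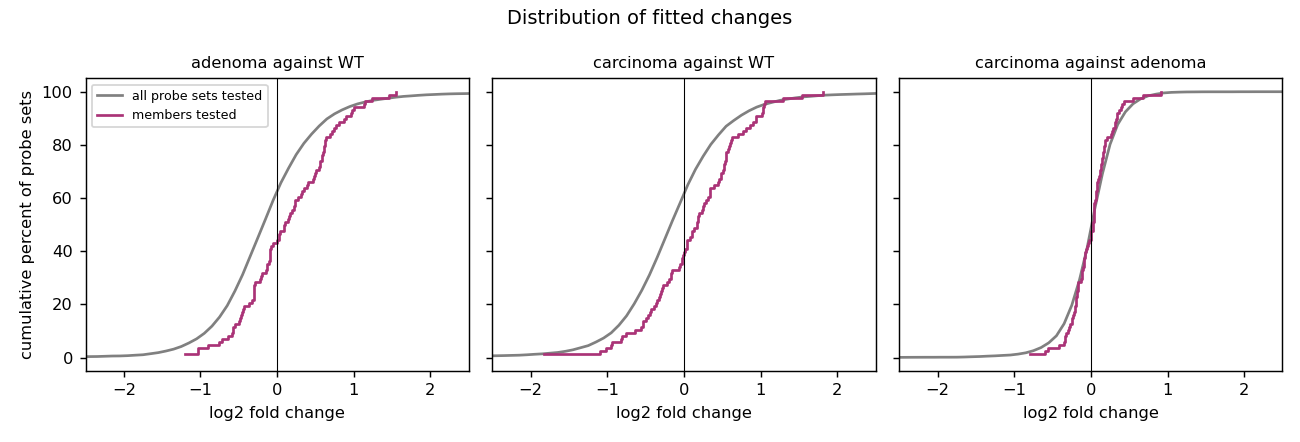
Cumulative percent of probe sets (y axis) by log2 fold change (x axis) in each comparison, for all probe sets tested (grey) and the 88 members tested (purple). Against WT the members' curve lies to the right of the grey curve over most of the range, with medians of 0.10 and 0.17 against -0.18 and -0.17, and between the tumours both curves lie close to 0.

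Scaling bears on these medians. The deposited arrays share a common trimmed mean, and the median of all probe sets moved from -0.18 to -0.04 with quantile normalization and to 0.07 with array medians aligned in adenoma, and from -0.17 to -0.02 and 0.10 in carcinoma. The share of higher values among all calls moved with it, from 45.4% to 60.7% and 72.7% in adenoma and from 42.3% to 57.2% and 71.7% in carcinoma. Among the members, 4 of 5 calls were higher in adenoma as deposited, 4 of 5 with quantile normalization and 9 of 9 with medians aligned. In carcinoma the counts were 4 of 6, 5 of 6 and 9 of 10. Relative to the median of all probe sets as deposited, Nhp2 stood at 1.74 in adenoma and 1.99 in carcinoma, Pes1 at 1.33 and 1.12, and Fbl at 1.65 and 1.71. On the same relative scale Polr1b stood at -0.85 and -0.77, Eif2d at 1.42 and 1.23, Eif2b1 at 1.15 and 1.47, and the Eif4e probe set that fell at -0.85 and -1.66.

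The box H/ACA snoRNPs guide pseudouridylation of rRNA, and Nhp2 is one of their core proteins. Its signal on the WT arrays had a lowest value of 823, a median of 1617 and a highest value of 2532. The 5 adenoma arrays read 3560.1, 4177, 5538, 3569 and 6585, and the 5 carcinoma arrays 5201, 4561, 3946, 6165 and 8150.3. Every tumour array was therefore above every WT array. Nhp2 rose by 1.56 ± 0.30 in adenoma, a 2.94-fold difference (adjusted p = 0.0026), and by 1.81 ± 0.30 in carcinoma, a 3.51-fold difference (adjusted p = 0.000548). Its measured partners in the same particle did not pass, and Dkc1, another partner, had no probe set of its own. Nop10 had changes of 0.58 ± 0.33 in adenoma and 0.17 ± 0.33 in carcinoma. In the same order, Gar1 had a pair of probe sets of opposite sign, at 0.39 and 0.49 and at -0.76 and -1.10. The latter was at the floor on 2 WT, 2 adenoma and 3 carcinoma arrays.

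The box C/D snoRNPs guide rRNA methylation, and Fbl (fibrillarin) is their methyltransferase. WT arrays read from 63.8 to 426 with a median of 157. Adenoma arrays read 326, 367, 634, 364 and 533, and carcinoma arrays 473, 399, 394, 469 and 541. The groups overlapped, with 2 of 5 adenoma and 3 of 5 carcinoma arrays above the highest WT array, and WT itself spanned more than either tumour. Fbl rose by 1.47 ± 0.42 in adenoma (2.76-fold, adjusted p = 0.0366) and by 1.54 ± 0.42 in carcinoma (2.90-fold, adjusted p = 0.0269). The adenoma call was lost without WT 1, 2 or 4 or adenoma 1, 2, 3 or 5, with adjusted p from 0.0514 to 0.0972. The carcinoma call was lost without WT 1, 2 or 4 or carcinoma 1, 4 or 5, with adjusted p from 0.0560 to 0.0595.

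The scaffold proteins of the same particle did not follow with a call. One probe set of Nop56 had 0.59 ± 0.22 in adenoma (adjusted p = 0.115) and 0.70 ± 0.22 in carcinoma (adjusted p = 0.0575), and its other probe set, of a design that can match a sequence family, had 0.00 and -0.02. Nop58, read only by a probe set of that design, had -0.14 and 0.04. Rrp9, which binds the U3 snoRNA, had -0.30 and -0.15. These partners, and those of Nhp2, Pes1, Polr1b and Eif2b1, were set beside the changed genes after their values had been seen.

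Pes1 is a subunit of the PeBoW complex, with Bop1 and Wdr12, which is needed to process the rRNA of the large subunit. Its WT arrays read from 105 to 311 with a median of 206. Adenoma arrays read 383, 456, 439.8, 424 and 545, all above WT, and carcinoma arrays 269, 431, 442, 436 and 397, of which 4 of 5 were above WT. Pes1 rose by 1.15 ± 0.28 in adenoma (2.21-fold, adjusted p = 0.0153) and by 0.94 ± 0.28 in carcinoma (1.92-fold, adjusted p = 0.0407). No left-out array ended the adenoma call. The carcinoma call was lost without WT 1, 2, 4 or 5, adenoma 2 or 3, or carcinoma 2, 3, 4 or 5, with adjusted p from 0.0520 to 0.0933.

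Neither partner of Pes1 passed, and their values were below 0. Bop1 had -0.57 ± 0.52 in adenoma and -0.53 ± 0.52 in carcinoma for one probe set. Its other had -0.65 ± 0.35 and -0.82 ± 0.35, and was at the floor on 1 WT, 3 adenoma and 4 carcinoma arrays. Wdr12 had -0.48 ± 0.28 in adenoma and -0.65 ± 0.28 in carcinoma. Among the other large-subunit factors Rrs1 had 0.62 ± 0.51 and 1.03 ± 0.51, Gnl3 (nucleostemin) 0.48 ± 0.28 and 0.52 ± 0.28, and Ppan -0.43 ± 0.37 and -0.76 ± 0.37. In all, 1 of 14 large-subunit probe sets (7.14%) passed in each tumour, with median changes of 0.05 and 0.07. The share of all probe sets that passed was 7.77% in adenoma and 8.68% in carcinoma.

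Polr1b is the second largest subunit of RNA polymerase I. Its direction was opposite to that of Nhp2 and Fbl. WT arrays read from 1883 to 3225 with a median of 2788, adenoma arrays 1015, 1464, 1435, 1964 and 1010.1, and carcinoma arrays 908, 1645, 1627, 1277 and 1795. Every carcinoma array and 4 of 5 adenoma arrays lay below the lowest WT array. Polr1b fell by 1.03 ± 0.26 in adenoma (2.04-fold, adjusted p = 0.0186) and by 0.95 ± 0.26 in carcinoma (1.93-fold, adjusted p = 0.0277). With array medians aligned neither call held, at -0.73 (adjusted p = 0.0537) and -0.62 (adjusted p = 0.0912). The adenoma call was also lost without adenoma 1 or 5 (adjusted p of 0.0595 to 0.0628), and the carcinoma call without WT 3 or 4 or carcinoma 1 or 4 (adjusted p of 0.0520 to 0.0886). This is the only probe set of the gene, and its design can match a family of sequences, so which transcripts it reads was not tested.

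The other polymerase I genes had smaller changes. Polr1c, a subunit shared with RNA polymerase III, had -0.30 and 0.03 in adenoma and -0.43 and 0.19 in carcinoma over its pair of probe sets. Tcof1 (treacle), which links the polymerase to rRNA gene chromatin, had 0.17 ± 0.26 and 0.45 ± 0.26. Mybbp1a, a nucleolar Myb-binding protein, had 3 probe sets between -0.58 and 0.39 over both comparisons, some of a design that can match a sequence family. Ubtf, the polymerase I transcription factor, is not a member, and had -0.55 ± 0.27 in adenoma (adjusted p = 0.238) and -0.53 ± 0.27 in carcinoma (adjusted p = 0.25).

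Npm1 (nucleophosmin), a nucleolar chaperone of ribosome export, and Ncl (nucleolin), a nucleolar scaffold bound to rRNA, had values as large as some calls. Their pooled SD within groups was 0.67 and 0.88 on the log2 scale. Among the calls it ran from 0.36 for Polr1b to 0.98 for the Eif4e probe set that fell. Npm1 read from 1862 to 8526 in WT with a median of 5316. Adenoma arrays read 11491, 8744, 10346, 4665 and 12754, and carcinoma arrays 15519, 13324, 7883, 8256 and 5308, so each tumour group overlapped WT. The changes were 1.0 ± 0.38 (adjusted p = 0.124) and 1.05 ± 0.38 (adjusted p = 0.0999). Ncl had 1.13 ± 0.48 (adjusted p = 0.16) and 1.02 ± 0.48 (adjusted p = 0.208), and Nolc1 -0.44 ± 0.38 and -0.49 ± 0.38. In the small subunit processome, which cuts the rRNA of the small subunit, Wdr43 had 0.58 ± 0.30 and 0.90 ± 0.30 (adjusted p = 0.261 and 0.0757) for one probe set and -0.14 and 0.00 for the other, and Utp14a had 0.65 ± 0.32 and 0.53 ± 0.32.

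**Figure D2:**
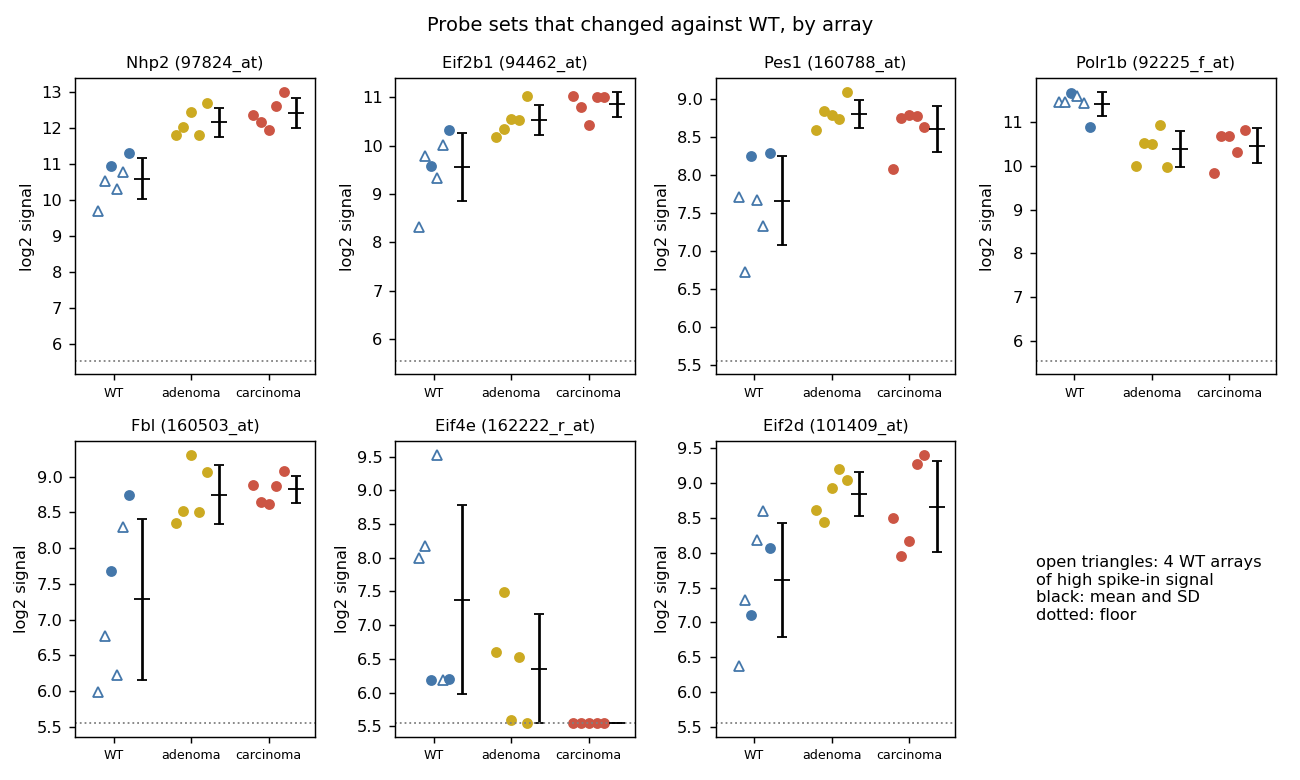
Log2 signal (y axis) of the 7 probe sets that changed against WT in at least 1 tumour, 1 point per array in WT (n = 6), adenoma (n = 5) and carcinoma (n = 5), with the mean and SD in black and the floor dotted. Nhp2 is above all WT arrays on every tumour array, Polr1b is below all WT arrays on every carcinoma array, and Eif4e is at the floor on all 5 carcinoma arrays; open triangles are WT 1, 2, 4 and 5, whose spike-in signal was high.

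Of the initiation factors, 1 of 52 probe sets (1.92%) passed in adenoma and 2 of 52 (3.85%) in carcinoma, where 7.77% and 8.68% of all probe sets did, with median changes of 0.10 and 0.17. The ribosome biogenesis members passed in 4 of 36 (11.1%) in each tumour, with medians of 0.14 and 0.15. The 4 in each tumour were Nhp2, Pes1, Fbl and Polr1b, the genes that the label rests on. Members were chosen with earlier results of these data known, so the gap between these shares is no result about the members. The difference was not tested.

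Eif2b1 encodes the alpha subunit of eIF2B, which reloads eIF2 with GTP after each round. WT arrays read from 321 to 1283 with a median of 823. Carcinoma arrays read 2089, 1785, 1370.2, 2069 and 2049, all above WT, and adenoma arrays 1160.3, 1304, 1505, 1482 and 2082, of which 4 of 5 were above WT. Eif2b1 rose by 1.29 ± 0.31 in carcinoma (2.45-fold, adjusted p = 0.0120), a call that no left-out array ended. In adenoma its change was 0.97 ± 0.31 (adjusted p = 0.0608), which did not pass.

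The other eIF2B subunits did not pass in either tumour. Eif2b2 had 0.20 ± 0.39 and 0.28 ± 0.39, and Eif2b4 -0.09 ± 0.25 and 0.25 ± 0.25. Eif2b5, the catalytic subunit, had probe sets of opposite sign, at 0.63 and 0.35 for one and -0.72 and -0.94 for the other. The latter was at the floor on 2 WT, 2 adenoma and 1 carcinoma arrays. The subunits of eIF2 itself, which carries the initiator tRNA, lay near 0 or below: Eif2s3x had -0.05 ± 0.21 and -0.01 ± 0.21, and the Eif2s2 probe sets had -0.20 and -0.55 in adenoma and -0.44 and -0.17 in carcinoma.

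Eif2d is a factor that can bring tRNA to the small subunit without eIF2. The probe set that passed read from 82.7 to 386 in WT with a median of 214. Adenoma arrays read 392, 348, 488, 589.7 and 526, of which 4 of 5 were above WT, and carcinoma arrays 362, 248, 287, 617 and 679.6, of which 2 of 5 were. Eif2d rose by 1.24 ± 0.38 in adenoma (2.36-fold, adjusted p = 0.0493), and had 1.05 ± 0.38 in carcinoma (adjusted p = 0.0902). The adenoma call was lost without any 1 of 12 arrays: WT 1, 2 or 3, any adenoma array, or carcinoma 1, 2, 3 or 4, with adjusted p from 0.0513 to 0.116. The other probe set of the gene was at the floor on all 6 WT arrays, 4 adenoma arrays and 3 carcinoma arrays, and was not tested.

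Eif4e encodes the protein that binds the mRNA cap, and its probe sets differed. One, of the less specific _r_at design, read from 73.1 to 740.2 in WT with a median of 164. Adenoma arrays read 96.9, 181, 48.2, 92.1 and 8.9, and carcinoma arrays 27.7, 16.7, 29.7, 13.3 and 23.7, all under the floor. With carcinoma at the floor, it fell by 1.83 ± 0.53, or at least 3.55-fold (adjusted p = 0.0358), and in adenoma it had -1.03 ± 0.53 (adjusted p = 0.252). The call was lost without WT 1, 2 or 4 or any 1 carcinoma array (adjusted p from 0.0618 to 0.0781), with quantile normalization (-1.60, adjusted p = 0.0706) and with the mean of both probe sets (-0.87, adjusted p = 0.0767).

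The other Eif4e probe set read from 131 to 294 in WT with a median of 247. Adenoma arrays read 224, 86.6, 146, 224 and 165, and carcinoma arrays 187, 205, 312, 190.2 and 309, so the groups overlapped. Its changes were -0.45 ± 0.30 in adenoma (adjusted p = 0.392) and 0.10 ± 0.30 in carcinoma (adjusted p = 0.876). Since 1 of the probe sets was at the floor on every carcinoma array, the gap between them in carcinoma, 1.93 on the log2 scale, depends on the floor.

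No other member of the cap-binding complex and its helpers passed. Eif4a1 and Eif4a2, the RNA helicases, had -0.47 ± 0.34 and 0.16 ± 0.64 in adenoma and -0.35 ± 0.34 and 0.18 ± 0.64 in carcinoma. Eif4a1 was read only by a probe set of the less specific _r_at design. Eif4g2, a relative of the eIF4G scaffold that does not bind eIF4E, had 0.81 ± 0.51 and 0.87 ± 0.51. The eIF4E binding proteins keep eIF4E from the eIF4G scaffold until mTOR phosphorylates them. Of these, Eif4ebp1 had 0.69 ± 0.34 in adenoma and 0.57 ± 0.34 in carcinoma. The Eif4ebp2 probe sets had -0.30 and -0.90 in adenoma and -0.39 and -1.01 in carcinoma.

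The factors that scan for the start codon had some of the higher values among the members that did not pass. Eif1a had 0.98 ± 0.31 (adjusted p = 0.0590) and 0.94 ± 0.31 (adjusted p = 0.0644) for one probe set and 0.89 ± 0.40 and 1.03 ± 0.40 for the other, and the related Eif1ax had 0.50 and 0.61 in adenoma and 0.55 and 0.61 in carcinoma. Eif1a and Eif1ax are close relatives, and how far their probe sets read each other's transcripts was not tested. Eif5, which makes eIF2 hydrolyse GTP at the start codon, had 0.56 ± 0.31 and 0.62 ± 0.31. The role as grouped here also held Eif1b and Eif5b, and Eif1a, Eif1ax and Eif5b had 2 probe sets each. All 8 probe sets of this role were above 0 in carcinoma and 5 of 8 in adenoma, where 38.4% and 37.5% of all probe sets were.

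In eIF3, the large complex that bridges mRNA and the small subunit, 10 of 12 probe sets were above 0 in adenoma. The share of all probe sets above 0 there was 37.5%. In carcinoma 6 of 12 were above 0, against 38.4% of all probe sets, and no eIF3 probe set passed. Eif3f, with the widest change, had -1.20 ± 0.39 in adenoma (adjusted p = 0.0687) and -0.81 ± 0.39 in carcinoma (adjusted p = 0.22). Eif3j1, which loosely binds the complex, had 0.77 ± 0.30 and 0.81 ± 0.30, and Eif3b and Eif3c, core subunits, 0.55 ± 0.23 and 0.34 ± 0.23, and 0.61 ± 0.44 and 0.77 ± 0.44.

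The 4 kinases that phosphorylate eIF2 and so slow initiation did not pass either. Eif2ak4 (GCN2), which senses amino acid shortage, had 0.87 ± 0.38 (adjusted p = 0.171) and 0.59 ± 0.38 (adjusted p = 0.354), Eif2ak2 (PKR) 0.74 ± 0.44 and 0.45 ± 0.44, Eif2ak3 (PERK) 0.46 ± 0.39 and 0.60 ± 0.39, and Eif2ak1 (HRI) -0.30 ± 0.32 in both. Eif5a, which carries the hypusine residue and helps translation past difficult stretches, had -0.49 ± 0.56 and 0.19 ± 0.56. Eif6, which keeps the ribosomal subunits apart, had 0.09 ± 0.25 and 0.17 ± 0.25.

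**Figure D3:**
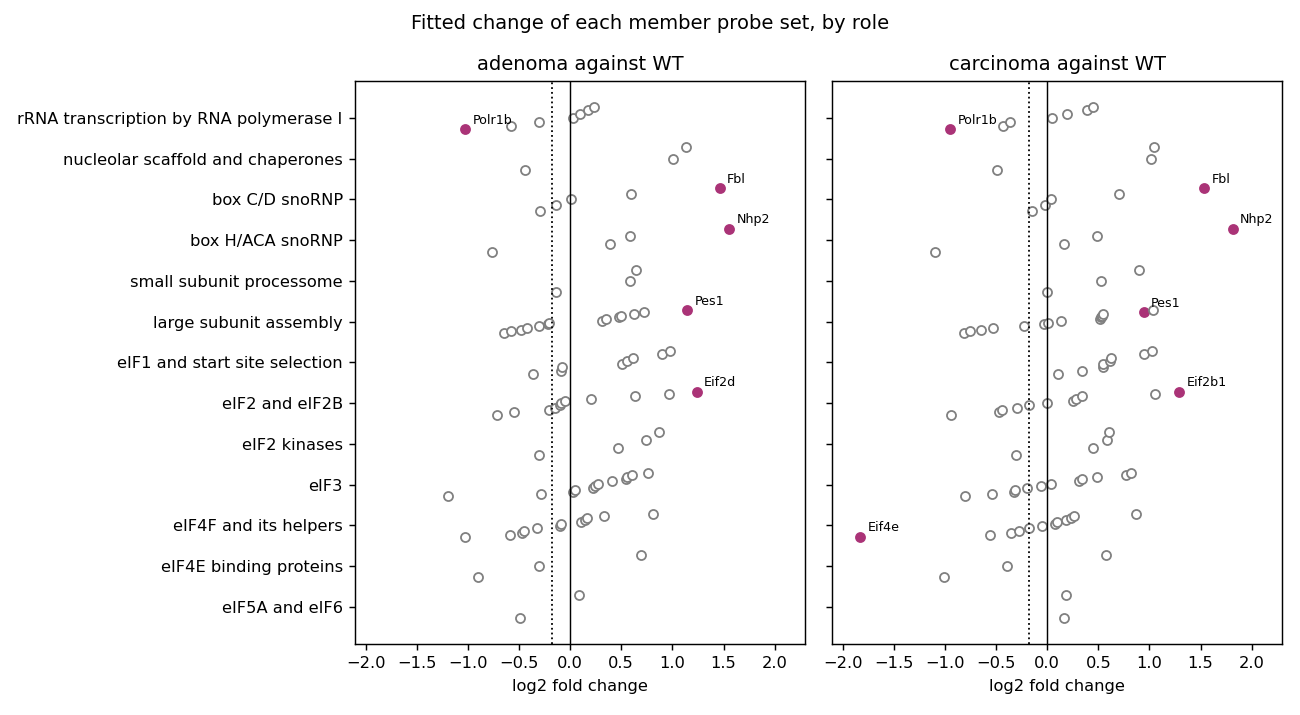
Log2 fold change (x axis) of each of the 88 member probe sets tested, by role (y axis), in adenoma and carcinoma against WT; filled points passed at an adjusted p under 0.05 and the dotted line is the median of all probe sets tested. Filled points number 5 in adenoma and 6 in carcinoma, and in carcinoma Rrs1, which did not pass, lies at 1.03, above Pes1 at 0.94.

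Between carcinoma and adenoma no member passed: 0 of 88 by limma after adjustment and 0 of 88 at an unadjusted p under 0.05, where 0.0379% of all probe sets passed after adjustment. By direction, 0 members were higher and 0 lower, where 0.00947% of all probe sets were higher and 0.0284% lower after adjustment, and 0.871% and 1.57% before it. The members' median difference was 0.03, beside 0.01 for all probe sets, and single differences ran from -0.80 (the Eif4e probe set at the floor in carcinoma) to 0.91 (an Eif5b probe set). Nhp2 differed by 0.26 ± 0.31, Pes1 by -0.20 ± 0.29, Fbl by 0.07 ± 0.44 and Polr1b by 0.08 ± 0.27. For 55 of the 88 members the 95% interval of the difference lay within 1 log2 unit of 0, and for the others it reached further with 5 arrays a group.

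Probe sets of the same gene often differed. For 18 genes at least 2 probe sets were tested, and these had the same sign for 10 of 18 genes in each comparison with WT. The median gap between them was 0.48 in adenoma and 0.62 in carcinoma, and the widest in adenoma was 1.35, for Eif2b5. The spread between arrays also varied: the pooled SD within groups ran from 0.18 for Eif2s3x to 1.22 for Eif4a2 on the log2 scale. The median was 0.54 over the members and 0.60 over all probe sets tested.

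Other genes of the pathway were set beside the members. Of 101 further probe sets for ribosome biogenesis factors, 3 rose and 0 fell in adenoma (2.97%) and 5 rose and 2 fell in carcinoma (6.93%). Over all probe sets 7.77% and 8.68% passed. The median changes of the 101 were -0.03 and 0.08. In adenoma, Noc4l, of the small subunit processome, rose by 1.58 ± 0.40 and Efl1, which releases Eif6 from the large subunit, by 1.56 ± 0.46. Pno1, of small subunit maturation, rose by 1.20 ± 0.36 in adenoma and 1.26 ± 0.36 in carcinoma. Bysl and Ltv1, of the same process, rose by 1.10 ± 0.32 and 1.01 ± 0.30 in carcinoma. Ltv1 was at the floor on 5 WT arrays. Taf1c, a subunit of the polymerase I selectivity factor, fell by 0.81 ± 0.23 in carcinoma.

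The cytosolic ribosomal proteins, the products these factors assemble, had 0 of 42 probe sets rising in either tumour and 1 falling, Rps24 in adenoma (-1.16 ± 0.35), with medians of -0.19 and -0.26. Of 18 probe sets for elongation and termination, 1 rose in each tumour, the poly(A)-binding protein Pabpc1 (0.93 ± 0.24 and 1.19 ± 0.24). Of 10 Myc network probe sets, 1 rose in adenoma, Mycl (1.06 ± 0.30), and 0 in carcinoma, and Myc had 0.95 ± 0.38 (adjusted p = 0.14) and 1.0 ± 0.38 (adjusted p = 0.114). Of 22 mTOR pathway probe sets, Ddit4, an inhibitor of mTOR complex 1, rose in both (1.65 ± 0.34 and 1.42 ± 0.34), and Rps6kb2, an S6 kinase, fell in adenoma (-1.54 ± 0.43). These counts stand beside the 7.77% of all probe sets that passed in adenoma and the 8.68% in carcinoma.

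Technical measures and cell type markers moved with the same groups. The mean log2 spike-in signal was 12.24 ± 0.82 in adenoma and 12.23 ± 0.50 in carcinoma, below the 13.74 ± 1.0 of WT (SD; exact permutation adjusted p = 0.0487 for each tumour against WT), and WT 1, 2, 4 and 5 lay above all tumour arrays. The Gapdh 3′ to 5′ log2 ratio, a measure of RNA and amplification quality, averaged 4.52 ± 0.39 on the WT arrays. Adenoma arrays averaged 5.82 ± 0.24 and carcinoma arrays 5.70 ± 0.58 (exact permutation adjusted p = 0.00649 for each tumour against WT). The same ratio of beta-actin went the other way and did not pass. For beta-actin, WT arrays averaged 6.25 ± 0.17. Adenoma arrays averaged 5.87 ± 0.30 and carcinoma arrays 6.04 ± 0.44 (exact permutation adjusted p = 0.0649 and 0.445). Summed proliferation markers ran from 27972 to 40961 in WT, from 37940 to 43199 in adenoma and from 43940 to 49808 in carcinoma, and of 27 tested 1 rose in adenoma and 2 in carcinoma. Of 12 goblet cell probe sets 6 fell in adenoma, and 7 fell and 1 rose in carcinoma (sums of 109327 to 223788 in WT, 39479 to 62736 and 26636 to 73698), and of 18 enteroendocrine ones 6 and 8 fell. Of 7 smooth muscle probe sets 2 fell in each tumour, of 7 Paneth cell ones 2 rose and 2 fell in each, and of 13 endothelial ones 4 rose in adenoma and 1 in carcinoma. Of 21 for fibroblasts and matrix 1 rose in adenoma, and 4 rose and 1 fell in carcinoma. Lymphocyte and plasma cell sums went from 2944 to 4705 in WT to 1694 to 2630 and 1656 to 2730, and mast cell sums from 1654 to 3104 to 4977 to 11502 and 2987 to 5620. Over all probe sets 7.77% passed in adenoma and 8.68% in carcinoma. All 15 probe sets of the epithelial list were above the floor on some array. The lists for lymphocytes and plasma cells, endothelium and fibroblasts also had 0 probe sets at the floor on every array. Passing so low a bar cannot bear on the tissue's label. Of the epithelial list's 14 tested 0 rose, and 1 fell in adenoma and 2 in carcinoma, with median changes of -0.37 and -0.48. Fabp2 fell in both (-2.16 ± 0.63 and -3.43 ± 0.63) and Krt20 in carcinoma (-1.22 ± 0.29). The list's sums ran from 106111 to 224978 in WT, 78256 to 119683 in adenoma and 59598 to 131746 in carcinoma. The part of any of these in the members' values was not tested.

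Within WT, the 4 arrays with the higher spike-in signal had lower values of most of the genes that rose: their mean log2 signal was 10.32 for Nhp2 against 11.13 on the other 2 WT arrays, 7.35 against 8.26 for Pes1, and 6.82 against 8.21 for Fbl. Eif2b1 stood at 9.37 against 9.95, Eif2d at 7.62 against 7.59 and Polr1b at 11.48 against 11.27. The Eif4e probe set that fell had the widest gap and the other direction, at 7.97 on the 4 arrays against 6.19 on the other 2. Without those 4 arrays 0 members passed by limma in either comparison, while 259 and 278 of all probe sets did, with 2 WT arrays left. The values there were 1.02 ± 0.35 and 1.28 ± 0.35 for Nhp2, in adenoma and carcinoma, 0.54 and 0.34 for Pes1, and 0.54 and 0.61 for Fbl. Eif2b1 had 0.90 and Eif4e -0.64 in carcinoma. Eif2d in adenoma had 1.26 ± 0.43 and Polr1b -0.89 ± 0.37 and -0.81 ± 0.37, where all arrays gave 1.24, -1.03 and -0.95. With that signal as a covariate, Nhp2 in carcinoma (1.48, adjusted p = 0.0274) was the only call kept, and Eif4ebp1 passed in both tumours (1.54, adjusted p = 0.00642, and 1.43, adjusted p = 0.0104). With the Gapdh ratio as a covariate 0 members passed by limma in either comparison. Standard errors were then wider: Polr1b had -1.13 ± 0.46 and -1.04 ± 0.43, Nhp2 0.89 ± 0.50 and 1.21 ± 0.47, and Fbl 0.50 ± 0.68 and 0.66 ± 0.64.

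**Figure D4:**
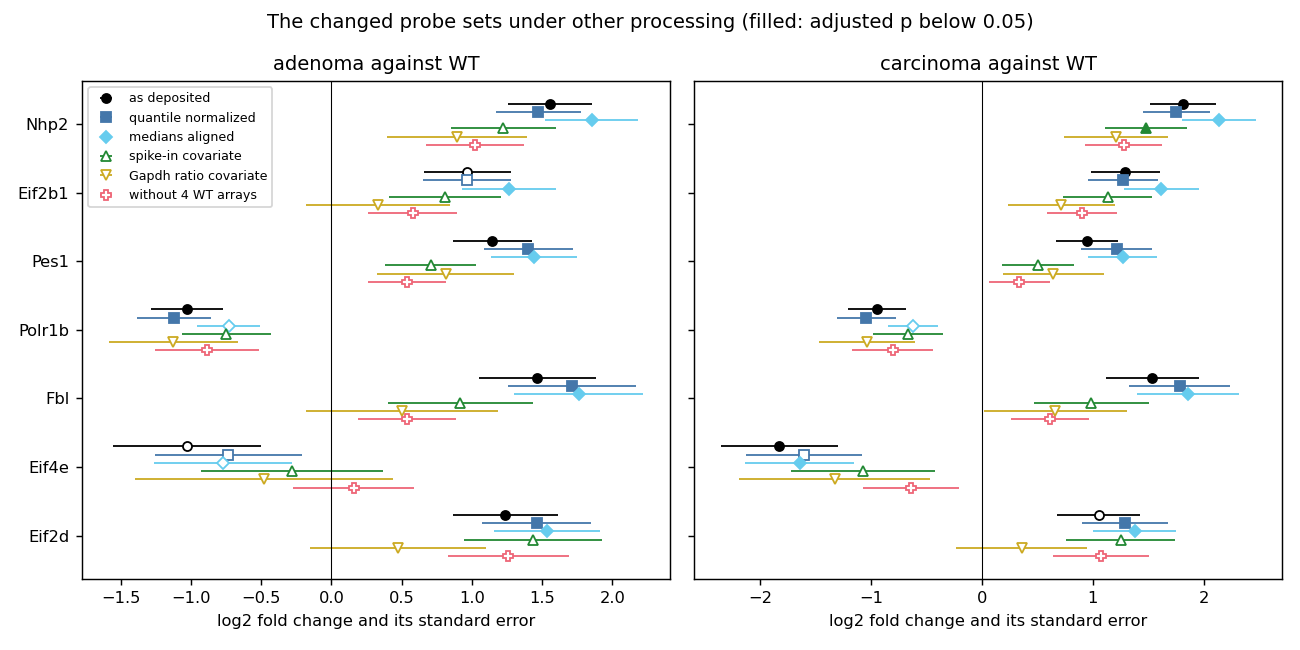
Log2 fold change with its standard error (x axis) of the 7 changed probe sets (y axis) as deposited and under 5 other settings, in adenoma and carcinoma against WT; filled symbols have an adjusted p under 0.05. The values of the calls keep their side of 0, and with the covariates or without the 4 WT arrays nearly all symbols are open.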

How the data were processed

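The authors deposited 1 linear signal intensity per probe set and array, and the sources used here do not name the software. Each array had a mean near 500.4 once 2% was trimmed at each end, with every value positive, so no further scaling was applied. A floor was set at 46.9 (log2 of 5.55) and lower signals were raised to it, which understates changes near it, and log2 was taken. The 66 control probe sets were not tested. One fit over the 3 groups used limma 3.58.1 (R 4.3.3; lmFit and eBayes, two-sided), on 10563 probe sets above the floor on at least 5 arrays, with Benjamini-Hochberg adjustment at 0.05. The code was tested on simulated data. The number of arrays limits the precision.

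Probe sets were named from the platform annotation, and all 93 member names matched a RefSeq-based gene table. Promoter windows are RefSeq's, in GRCm38.p6. Members and lists were chosen with earlier results of these data known. Named genes were the members past the threshold, their other probe sets, the member with the smallest p of each remaining role, Nhp2, Pes1, Fbl and Polr1b, up to 4 genes past the threshold per list, and Myc and Ubtf. Others were named after their values were seen. Levels and 3′ to 5′ ratios of control probe sets were compared by exact permutation tests, two-sided. Alternatives covered scaling, floor, filter, unit, variance, covariates and left-out arrays.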

Additional observations from a re-analysis of the deposited data

Results flagged for a closer look

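In 4 of the 46 groups of arrays looked at among the named members, 1 array stood apart from the others of its group by Dixon's 95% critical value, which chance exceeds in about 1 of 20 groups. Pes1 had a log2 signal of 8.07 on carcinoma 1, where the nearest of the other carcinoma arrays had 8.63 and the highest 8.79. Polr1b had 10.88 on WT 6, where the other WT arrays lay between 11.43 and 11.65. The Eif2d probe set that was not tested had 6.13 on adenoma 2, and the other 4 adenoma arrays were at the floor of 5.55, so this gap is set by the floor and says nothing against chance. Eif3f had 6.34 on carcinoma 2, and the other carcinoma arrays lay between 7.12 and 7.30. No other value of a named member, and no difference of effects between the tumours, stood apart in this way.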

How the results depend on the processing

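No call changed its direction under any alternative run. The number of members that changed in adenoma against WT (5 as reported) was 9 with array medians aligned, 3 with the floor at the 10th percentile, 8 with array weights, 3 with only the 2 groups fitted, 0 with the Gapdh ratio as a covariate, 1 with the spike-in signal as one and 0 without WT 1, 2, 4 and 5, the arrays of high spike-in signal. In carcinoma against WT (6 as reported) it was 10 with medians aligned, 3 with only the 2 groups fitted, 0 with the Gapdh ratio, 2 with the spike-in signal and 0 without the 4 WT arrays. The cause was not tested. In adenoma 7.46% of all probe sets passed with medians aligned and 5.58% with the floor at the 10th percentile. The share was 11.1% with array weights and 6.06% with only the 2 groups fitted. In carcinoma it was 9.34% with medians aligned and 6.52% with only the 2 groups fitted. Over all probe sets the counts were 97, 463 and 259 in adenoma (821 as reported) and 145, 458 and 278 in carcinoma (917) with the Gapdh ratio, with the spike-in signal and without the 4 arrays. The members' median was 0.39 in adenoma and 0.45 in carcinoma with medians aligned. Leaving out 1 array at a time gave 2 to 8 members in adenoma, 2 to 10 in carcinoma and 0 to 0 between the tumours. The share of all probe sets ran from 4.91% to 9.16%, from 5.98% to 10.3% and from 0.0379% to 0.0663%. The members' medians then ran from 0.08 to 0.18, from 0.09 to 0.18 and from -0.02 to 0.05. Of 31 alternatives, Nhp2 passed in 28 (adenoma) and 29 (carcinoma), Pes1 in 28 and 16, Polr1b in 25 and 23, Fbl in 18 and 21, Eif2b1 in carcinoma in 28 and Eif2d in adenoma in 13, and Eif4e in carcinoma in 14 of 29. With the replicate number as a block, 9 members passed in adenoma and 15 in carcinoma, and 1050 (9.94%) and 1181 (11.2%) of all probe sets did. No other array shares the number of WT 6, so this fit in effect leaves WT 6 out. Leaving out WT 6 alone gave the same medians of 0.08 and 0.11, with 8 members in adenoma and 10 in carcinoma. Deviations of arrays with the same number correlated between -0.25 (WT 5 and adenoma 5) and 0.36 (WT 5 and carcinoma 5). Arrays of different numbers were not set beside them, so this range cannot show whether the numbers pair arrays. The titles state no pairing, and none was used in the reported fit. Signal near the floor limits Eif4e, Fbl (lowest WT signal of 63.8) and the 5 probe sets not tested. It also limits other members, among them Nolc1 and 1 probe set each of Bop1, Gar1 and Eif2b5, at the floor on some arrays.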
